A study of Arabidopsis thaliana with 9 samples.

Results

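DME and MPC are the 2 genes described here, of 13286 Arabidopsis thaliana genes named on the array through the annotation used. They were chosen by name, as a DNA demethylase and a maternally expressed imprinted gene, and each by 1 probe set. MPC has no other probe set in the annotation used, and for DME the chosen one is the brightest of 3. The other DME probe sets, 250835_at and 250834_at, are reported beside it and named by these identifiers, while DME without an identifier means the chosen set. The samples are whole plants of mutant line774 (source name 774-1), mutant line1135 (source name 1135-5) and a WT-control (source name C2S1), with 3 Affymetrix ATH1 arrays per group. All plants had grown for 17 days to growth stage 1.04 on agar plates at 21 °C, with 16 h of light. The series title calls the mutants epigenetic, the labels used here name no mutated gene for either line, and a T-DNA knockout label stands on the WT-control arrays too. Each line is 1 mutant line, so a mutation and its line background cannot be told apart, and nothing in the labels says whether the arrays of a group come from separate plantings, so the p-values below cover the spread from array to array, part or all of which can be technical.

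DME (DEMETER, AT5G04560, chromosome 5) encodes a DNA glycosylase that cuts 5-methylcytosine out of DNA and so starts active demethylation by base excision. It is best known from the central cell of the female gametophyte, where it removes methylation from the maternal copies of imprinted genes that are later expressed in the endosperm. MPC (AT3G19350, chromosome 3) is one of these maternally expressed genes, and its product resembles the C-terminal domain of poly(A)-binding proteins. A probe set reads transcripts of both parental copies together, so imprinting itself was not measured. RNA came from whole plants, in which fewer cells of a type and less RNA per cell cannot be told apart.

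No difference of DME or MPC passed the test in either line. With 3 arrays per group, the 95% intervals of the difference excluded a 2-fold change of signal in either direction for the chosen DME set and for MPC in all 3 comparisons, and for MPC this depended on single arrays and on the variance estimate. At the other DME sets a 2-fold decrease of signal was not excluded, for 250835_at in line774 and for 250834_at in each comparison. DME averaged 68.7 ± 12.8 in line774, 68.6 ± 10.2 in line1135 and 64.1 ± 2.43 in the WT-control (signal, SD, n = 3). MPC averaged 32.2 ± 7.48 in line774, 32.4 ± 16.5 in line1135 and 28.7 ± 5.16 in the WT-control. Of the 2 genes, 0 passed an adjusted p under 0.05 in limma's moderated test in any comparison, and 0 had an unadjusted p under 0.05. Over all 22746 probe sets tested, 12.6% passed between line774 and the WT-control, 13.6% between line1135 and the WT-control and 2.00% between line1135 and line774. The shares with an unadjusted p under 0.05 were 25.3%, 26.4% and 14.8% in these comparisons.

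The signal of DME was 75.1, 77.1 and 54.0 on the line774 arrays, 65.5, 80.0 and 60.3 on the line1135 arrays, and 61.3, 65.6 and 65.3 on the WT-control arrays (replicates 1 to 3). All 3 groups overlapped, and the highest and the lowest array both belonged to mutant lines. The WT-control arrays lay within 4.36 signal units of each other, against 23.1 in line774 and 19.7 in line1135. Every array was above the highest of the 27 Bacillus control probe sets, which served as the background and lay between 8.49 and 10.9 in line774, 7.54 and 13.4 in line1135, and 5.36 and 6.63 in the WT-control.

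**Figure D1:**
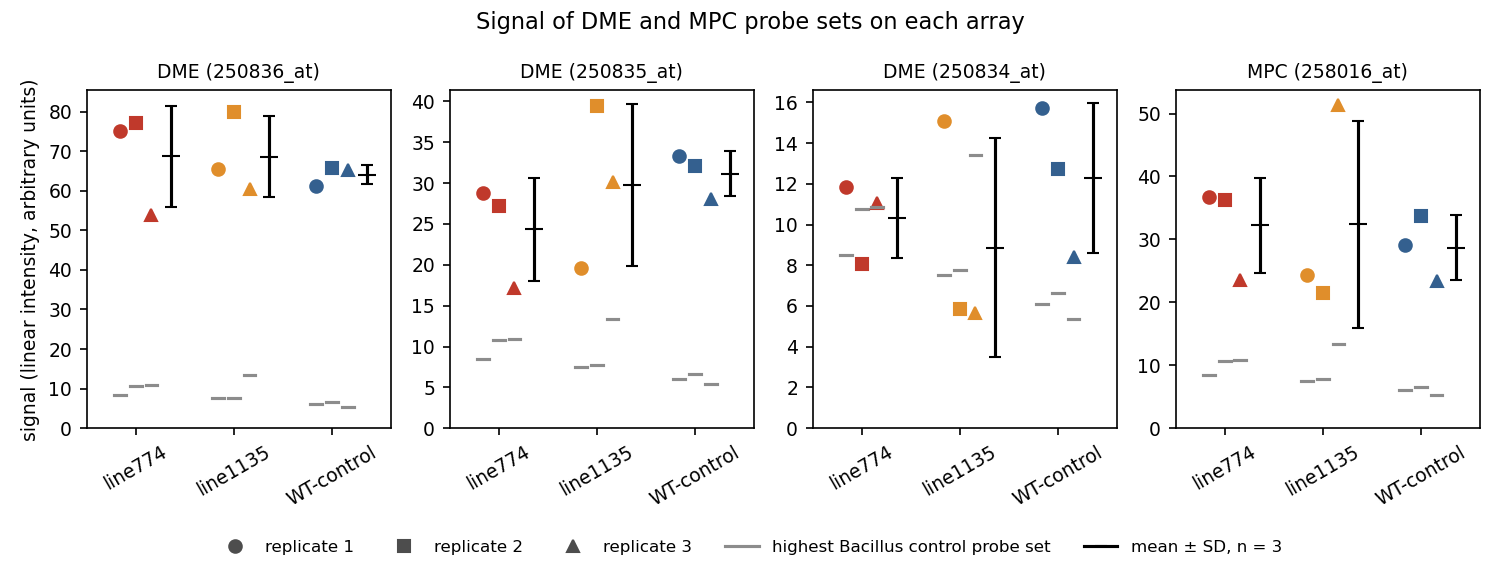
Signal (linear intensity, from 0) of the 3 DME probe sets and of MPC on each of the 9 arrays, by group, with the mean and SD of 3 arrays and, in grey, the highest Bacillus control signal of the same array. Groups overlap in every panel, line1135 replicate 3 stands highest for MPC at 51.4, and at the third DME probe set (250834_at) 3 of 9 arrays lie at or below the grey lines.

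Differences are given on the scale of log2(signal + 16), with limma's standard error and 95% interval. Folds are of the signal itself, obtained from that scale by taking the offset of 16 off again, with the second group held at its own level. DME differed by 0.07 ± 0.13 between line774 and the WT-control (interval -0.23 to 0.37, adjusted p = 0.821 in limma). The interval corresponds to line774 signals of 52.4 to 87.3, or 0.818-fold to 1.36-fold of the WT-control signal. Between line1135 and the WT-control the difference was 0.07 ± 0.13 as well (interval -0.22 to 0.37, adjusted p = 0.798 in limma), or 0.820-fold to 1.37-fold. Line1135 and line774 differed by 0.0031 ± 0.13 (interval -0.29 to 0.30, adjusted p = 0.998 in limma), or 0.772-fold to 1.29-fold. These intervals say which changes the arrays exclude at that confidence, and a p above the threshold does not show that the levels are equal.

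The exact two-sided permutation test of the same differences, with 20 splits per comparison, gave p = 0.6 for line774 against the WT-control, p = 0.8 for line1135 against the WT-control and p = 1.0 between the lines. With 3 arrays against 3 it cannot go below 0.1. The standard error of the DME difference was 0.135, and the median over all probe sets was 0.135 too. A change of the DME signal of 1.46-fold upwards, or to 0.662-fold, would have met the adjusted threshold between line774 and the WT-control, and loss of the whole WT-control signal would have read as -2.32 on the log2 scale. With an offset of 1 the DME interval ran from 0.825-fold to 1.36-fold of signal in line774 and from 0.829-fold to 1.36-fold in line1135. The sign of the small difference rested on single arrays: without line774 replicate 2 it was -0.0036 in line774, and without line1135 replicate 2 it was -0.021 in line1135. The difference between the lines was -0.13 without line774 replicate 3 and -0.091 without line1135 replicate 2.

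The other DME probe sets had differences of the opposite sign from the chosen set in both lines against the WT-control, and neither passed. At 250835_at the signal was 28.7, 27.2 and 17.1 on the line774 arrays, 19.6, 39.4 and 30.2 on the line1135 arrays, and 33.3, 32.1 and 28.0 on the WT-control arrays. Line774 overlapped the WT-control by 1 array, and line1135 spanned a wider range than either. The difference was -0.24 ± 0.18 in line774 (interval -0.64 to 0.17, adjusted p = 0.495 in limma) and -0.07 ± 0.18 in line1135 (interval -0.47 to 0.34, adjusted p = 0.872 in limma). Without line1135 replicate 1 the line1135 difference was 0.10. The lowest line774 signal within the interval was 14.3, or 0.458-fold of the WT-control signal, so at this set a 2-fold decrease in line774 was not excluded. With an offset of 1 that bound was 0.481-fold. In line1135 the bounds were 0.579-fold and 1.40-fold.

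At 250834_at the signal was 11.8, 8.07 and 11.1 on the line774 arrays, 15.1, 5.84 and 5.68 on the line1135 arrays, and 15.7, 12.7 and 8.38 on the WT-control arrays. It was above background on 2 of 3 line774 arrays, 1 of 3 line1135 arrays and 3 of 3 WT-control arrays, and the background itself was lower on all WT-control arrays than on any mutant array. The part of that background gap in the difference was not tested. The difference was -0.10 ± 0.17 in line774 (adjusted p = 0.791 in limma) and -0.20 ± 0.17 in line1135 (adjusted p = 0.512 in limma). This set says little about a decrease, because its WT-control signals lie below the offset and complete loss would have read as only -0.81. Its interval reached down to 0.363-fold of the WT-control signal in line774 and 0.250-fold in line1135, and with an offset of 1 to 0.393-fold and 0.301-fold. Line1135 differed from line774 by -0.10 ± 0.17 at 250834_at and by 0.17 ± 0.18 at 250835_at.

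Across the 9 arrays the 3 DME probe sets did not move as one. Pearson's r of log2(signal + 16) was 0.54 between the chosen set and 250835_at, -0.32 between the chosen set and 250834_at, and -0.35 between 250834_at and 250835_at, given as descriptions over 9 arrays that share their RNA and scaling. The RefSeq record of DME in the TAIR10.1 assembly lists 3 transcripts and absorbs 2 former locus names, AT5G04570 and AT5G04580. Which transcript or stretch each probe set reads was not determined. The mean of the 3 sets, an alternative chosen after seeing the data, differed by -0.09 in line774 (adjusted p = 0.761 in limma) and by -0.06 in line1135 (adjusted p = 0.823 in limma).

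**Figure D2:**
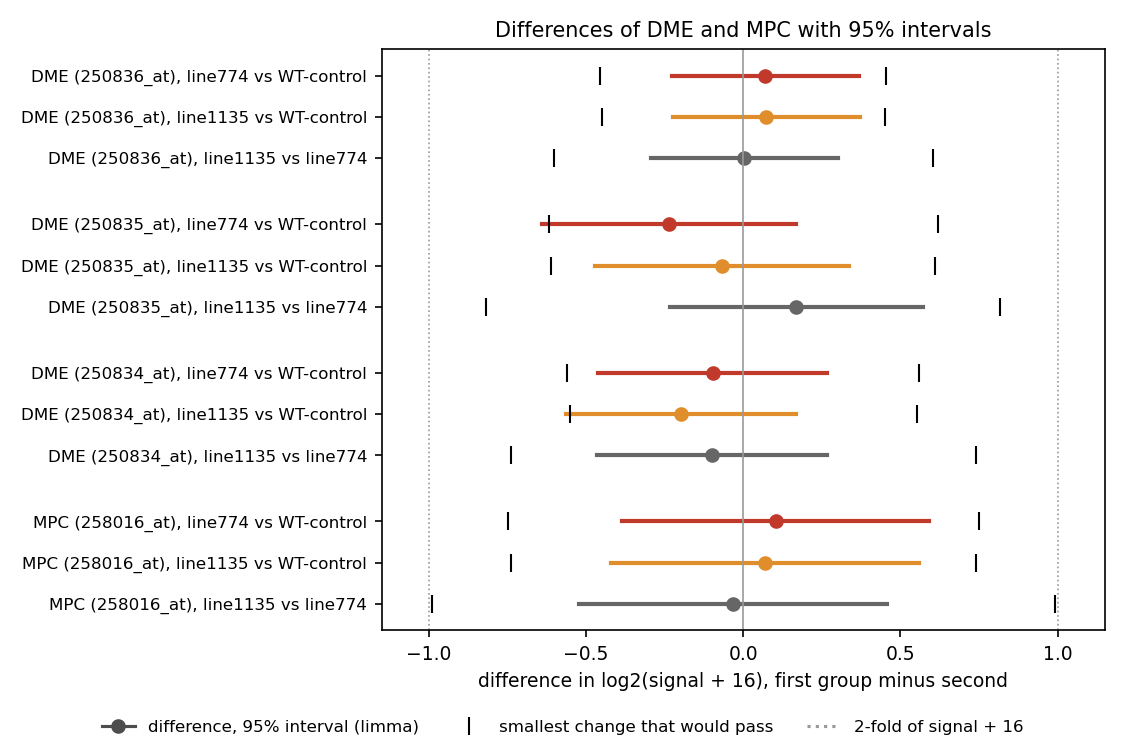
Differences in log2(signal + 16) for the 3 DME probe sets and MPC in 3 comparisons, each the first group minus the second, with limma's 95% interval (n = 3 arrays per group). Black ticks mark the smallest change that would have met the adjusted threshold and dotted lines mark a 2-fold change of signal + 16. All intervals include 0 and lie between the dotted lines, although in signal those of 250835_at in line774 and of 250834_at in each comparison reach below a 2-fold decrease. The intervals of 250835_at in line774 and 250834_at in line1135 reach past their lower tick.

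MPC had a signal of 36.8, 36.3 and 23.6 on the line774 arrays, 24.4, 21.5 and 51.4 on the line1135 arrays, and 29.1, 33.7 and 23.4 on the WT-control arrays. All 9 arrays were above background and the groups overlapped. In line774, 2 arrays lay above the WT-control range and 1 within it, while line1135 had 1 array above, 1 within and 1 below. Line1135 replicate 3 was the highest of the 9. The 3 line1135 arrays differed by up to 2.39-fold, against 1.56-fold within line774 and 1.44-fold within the WT-control.

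MPC differed by 0.10 ± 0.22 between line774 and the WT-control (interval -0.39 to 0.59, adjusted p = 0.843 in limma), which corresponds to 0.633-fold to 1.79-fold of the WT-control signal. Between line1135 and the WT-control it differed by 0.07 ± 0.22 (interval -0.42 to 0.56, adjusted p = 0.892 in limma), or 0.606-fold to 1.74-fold. This is a line1135 signal of 17.3 to 49.6, against 28.5 in the WT-control. Between the lines the difference was -0.03 ± 0.22 (interval -0.52 to 0.46, adjusted p = 0.971 in limma), or 0.543-fold to 1.56-fold. The exact permutation test gave p = 0.5 for line774 against the WT-control and p = 0.9 both for line1135 against the WT-control and between the lines. MPC had a wider standard error than the median probe set, 0.222 against 0.135, from a spread estimated over all 3 groups. With it, only an increase of the signal to 2.06-fold or a decrease to 0.367-fold would have met the threshold in line774. A 2-fold rise or fall of the MPC signal would therefore not have passed in this fit. In a fit of line774 and the WT-control alone the standard error was 0.164, and the interval ran from 0.730-fold to 1.62-fold. Complete loss of the WT-control signal would have read as -1.48 on the log2 scale, outside the main intervals of both lines. Over 20 settings the MPC interval excluded a 2-fold change of signal in 17 for line774, in 14 for line1135 and in 16 between the lines. It reached up to 2.12-fold in line774 without line774 replicate 3, down to 0.472-fold in line1135 without line1135 replicate 3, and up to 2.07-fold in line1135 without line1135 replicate 2.

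The sign of the MPC difference in line1135 depended on single arrays. Without line1135 replicate 3 it was -0.19 (interval -0.60 to 0.21, adjusted p = 0.575 in limma), and without WT-control replicate 3 it was -0.019. That line1135 array had the highest Bacillus signal of all 9, at 13.4, and its MPC signal was 3.83 times that background. It was the highest of its group for 34.6% of all probe sets, against 28.5% and 36.9% for the other 2 line1135 arrays. Between the lines the MPC difference was positive without line774 replicate 1 (0.038), line774 replicate 2 (0.032), line1135 replicate 1 (0.073) or line1135 replicate 2 (0.12).

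No correlation of DME and MPC was detected over the 9 arrays, which are too few to show that the genes vary independently. Pearson's r was -0.016 (exact permutation p = 0.968, n = 9) and Spearman's rho was -0.067 (exact permutation p = 0.88). Without line774 replicate 3 and line1135 replicate 2, the 2 arrays farthest from the median of DME, r was 0.017 (exact permutation p = 0.921, n = 7). That set kept line1135 replicate 3, which had the highest MPC signal, and r without that array was not computed. The relation of DME and MPC was the only one across arrays tested, so no adjustment was made. Taken within groups, as deviations from the group means over the 9 arrays, r was -0.056 and rho was -0.067. On line774 replicate 3 both genes were low for their group, and on line1135 replicate 2 DME was at its highest and MPC at its lowest of all arrays.

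**Figure D3:**
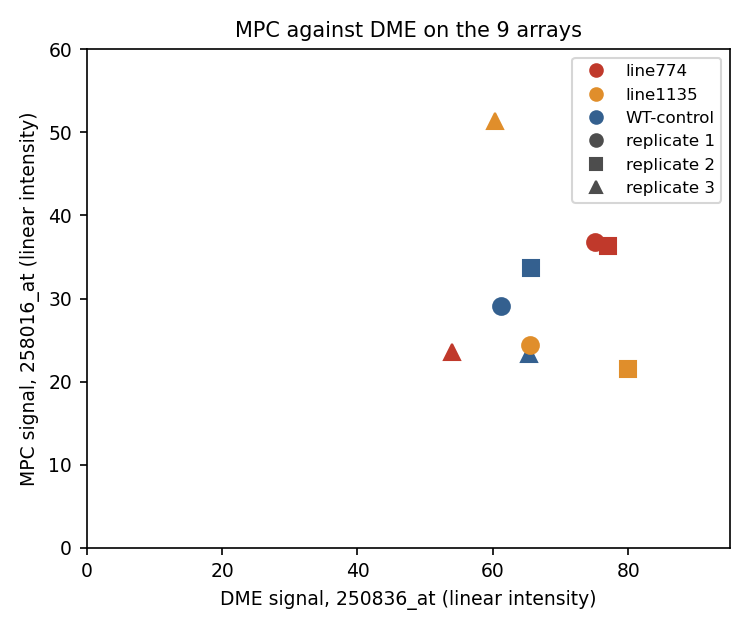
MPC signal against DME signal (chosen probe set), both linear intensity from 0, on the 9 arrays, coloured by group and shaped by replicate number. Over all 9 points r is -0.016, and line1135 replicate 3 lies apart with an MPC signal of 51.4 at a DME signal of 60.3.

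The genes whose log2 signal followed each member most closely were taken from 7564 named probe sets above background on all 9 arrays, by Pearson's r over 9 arrays. For DME they were DPL1, a sphingolipid long-chain base phosphate lyase (r = 0.95), AT5G47430 (r = 0.88) and AT1G11240 (r = 0.87). DPL1 had signals of 189, 208 and 140 in line774, 166, 239 and 148 in line1135, and 152, 162 and 156 in the WT-control, so it shared with DME the low line774 replicate 3 and the high line1135 replicate 2. For MPC they were AT4G30630 (r = 0.95), AT5G57070 (r = 0.92) and AT5G05130 (r = 0.91). AT5G57070 had signals of 31.7, 26.9 and 21.7 in line774, 15.8, 19.6 and 39.7 in line1135, and 21.1, 24.8 and 21.4 in the WT-control, with line1135 replicate 3 the highest as for MPC. Values of r this high are picked as the largest of many over 9 arrays, and they describe these arrays only.

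Active demethylation needs the repair enzymes that follow the glycosylase and the proteins that guide it. Of the 4 listed 5-methylcytosine glycosylases only DME was named by the annotation used here. Of 17 listed repair enzymes and cofactors 6 were measured, and 0 passed in limma in any comparison, nor did any have an unadjusted p under 0.05, beside 25.3%, 26.4% and 14.8% of all probe sets in the 3 comparisons. Their median difference was 0.01 in line774 and -0.0070 in line1135, beside 0.02 in each line over all probe sets. ZDP, the DNA phosphatase that trims the end left by the glycosylase, averaged 39.1 ± 6.35 in line774, 36.02 ± 4.68 in line1135 and 28.4 ± 4.60 in the WT-control (SD, n = 3), with differences of 0.31 ± 0.14 (adjusted p = 0.204 in limma) and 0.23 ± 0.14 (adjusted p = 0.356 in limma). H1.1, a linker histone, averaged 758 ± 76.2 in line774, 703 ± 27.6 in line1135 and 790 ± 5.40 in the WT-control, with differences of -0.06 ± 0.08 and -0.17 ± 0.08 (adjusted p = 0.203 for line1135 in limma).

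Of 21 listed imprinted genes 5 were measured, MPC among them, and 2 of the 5 were above background on all arrays. None of the 5 passed in limma, beside 12.6%, 13.6% and 2.00% of all probe sets in the 3 comparisons. With 5 genes, 0 passing cannot be told from these shares. At an unadjusted p under 0.05, 1 of the 5 differed between line1135 and line774, where 14.8% of all probe sets did. That gene was ALN, the allantoinase of purine breakdown, which averaged 70.3 ± 4.07 in line1135 and 102 ± 34.7 in line774, against 73.1 ± 6.46 in the WT-control (SD, n = 3). Its difference between the lines was -0.41 ± 0.17 (adjusted p = 0.289 in limma). BMI1C, a Polycomb RING-finger gene, averaged 2.16 ± 1.87 in line774, 4.51 ± 4.11 in line1135 and 0.774 ± 0.259 in the WT-control, and was above background on 1 of 9 arrays. PEG2 and ADM, both paternally expressed in the endosperm, were above background on 1 and 0 arrays. The list's median difference was 0.11 in line774 and 0.07 in line1135, beside 0.02 over all probe sets in each. Among 5 genes these medians are values of single genes, BMI1C in line774 and MPC itself in line1135. Of the 9 listed poly(A)-binding protein genes only MPC itself was named, and 0 of 18 listed DNA methylation genes and 0 of 8 Polycomb genes were, so nothing can be read here about those groups.

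The whole-plant label could be checked in part. RCA, the Rubisco activase of leaves, averaged 5900 ± 138 in line774, 6185 ± 402 in line1135 and 5684 ± 665 in the WT-control (SD, n = 3), the 1 leaf marker measured of 10. Of 10 root markers 3 were measured, with PYK10, a root beta-glucosidase, at 2842 ± 535 in line774, 3049 ± 370 in line1135 and 3296 ± 262 in the WT-control. EXPA18, a root-hair expansin, had differences from the WT-control of 0.20 ± 0.20 in line774 and -0.37 ± 0.20 in line1135, and did not pass. Between line1135 and line774 it differed by -0.57 ± 0.20 (adjusted p = 0.209 in limma). EXPA7, another root-hair expansin and named after its values were seen, averaged 18.4 ± 2.85 in line774, 11.7 ± 4.31 in line1135 and 8.73 ± 4.04 in the WT-control, and was above background on 7 of 9 arrays. Its difference was 0.49 ± 0.16 in line774 (adjusted p = 0.081 in limma), opposite in sign to that of PYK10 at -0.23 ± 0.14 (adjusted p = 0.354 in limma). Of the 3 root markers, 1 had an unadjusted p under 0.05 in line774, 0 in line1135 and 1 between the lines. Over all probe sets these shares were 25.3%, 26.4% and 14.8%. None of the 3 passed, beside 12.6%, 13.6% and 2.00% of all probe sets, and counts among 3 genes cannot be told from these shares. The summed root markers, nearly all of it PYK10, ran from 2370 to 3441 in line774, 2721 to 3473 in line1135 and 3058 to 3594 in the WT-control. The part of these root marker differences in the DME and MPC values was not tested. None of the 13 seed and endosperm markers and none of the 10 flower markers was named by the annotation used here, so a part of seed or flower RNA in the DME and MPC signals was not tested.

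The loci around each gene were taken in gene order, 3 named loci on either side. None of the 6 loci around DME and none of the 6 around MPC passed in limma in any comparison, and 0 had an unadjusted p under 0.05, beside 25.3%, 26.4% and 14.8% of all probe sets. AT5G04550 and SIR, the sulfite reductase of sulfur assimilation, are the next annotated loci on either side of DME. SIR averaged 692 ± 81.1 in line774, 740 ± 70.1 in line1135 and 672 ± 63.0 in the WT-control (SD, n = 3), and AT5G04550 averaged 99.0 ± 4.40 in line774, 107 ± 8.32 in line1135 and 98.6 ± 14.8 in the WT-control. The 6 loci around DME, AT5G04520, AT5G04500, AT5G04600 and AT5G04610 included, differed by 0.01 to 0.21 in line774 and by -0.21 to 0.25 in line1135. Around MPC the loci AT3G19340, AT3G19330, AT3G19320, AT3G19360, AT3G19370 and PUB25, a U-box ubiquitin ligase, differed by -0.29 to 0.20 in line774 and by -0.14 to 0.16 in line1135. The neighbour with the lowest line774 value, AT3G19330, was above background on 2 of 9 arrays, and AT5G04500 near DME on 1. Of the 6 loci around DME 5 were above background on all 9 arrays, and of the 6 around MPC 4 were. On the scale of these differences, the members lay among their neighbours, as the plot of loci in gene order shows.

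**Figure D4:**
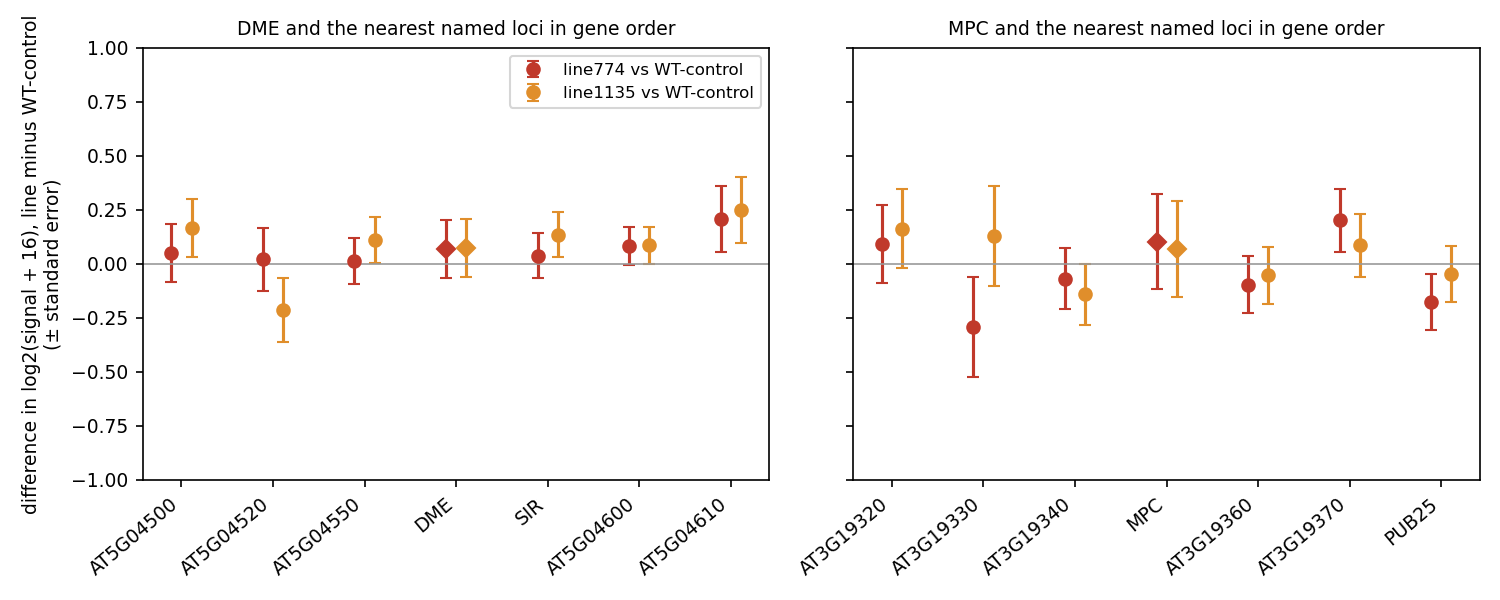
Differences in log2(signal + 16) between each line and the WT-control (± standard error from limma, 3 arrays per group) for DME, MPC (diamonds) and the 3 nearest named loci on each side (circles), in gene order. Differences lie between -0.29 and 0.25, and those of DME and MPC, 0.07 to 0.10, fall within the range of their neighbours.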

How the data were processed

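Biotin-labelled RNA of 9 samples was read on ATH1 arrays, 1 for each. The deposited file holds linear intensity values of probe sets. The submitters' processing notes name MAS5 and GCOS, without versions. The authors had scaled each array by 1 factor, since each deposited intensity column had a 2% trimmed mean near 100. Array scale was kept. Groups and replicate numbers came from sample titles. Of 22810 probe sets, 64 controls were left out and 22746 tested with no filter on low signal. Values were taken as log2(signal + 16) and fitted with 1 mean per group to all 9 arrays in limma 3.58.1 (R 4.3.3, lmFit, eBayes with intensity trend, 6 residual degrees of freedom before moderation). Benjamini-Hochberg adjustment ran over the whole table in each comparison, and a probe set passed at an adjusted p under 0.05, at any fold. Tests were checked on simulated data. The number of arrays limits the precision. Exact permutation tests used scipy 1.17.1 and figures matplotlib 3.10.9.

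Probe sets were named by the platform annotation, and 13436 with 1 gene matched a RefSeq locus (TAIR10.1). No coordinates are given, since the files name no build. For a gene with several probe sets the brightest stood for it. Beside DME and MPC, the text names each list's members that passed or otherwise the 2 with the lowest p, the 2 brightest tissue markers per list, 3 neighbours per side and the 3 most alike genes per member. The members and lists were chosen with earlier results of these data known. Reported alternatives were offsets of 1 and 64, 2 filters, 2 normalizations, 2 variance priors, a fit of the compared groups, a replicate block, omission of shared probe sets, 2 call rules and leaving out each array.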

Additional observations from a re-analysis of the deposited data

How the results depend on the processing

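Over all alternatives run, 0 differences of DME (the chosen probe set) or MPC passed the threshold. In signal, the 95% intervals of DME stayed within 2-fold in all 21 settings of each comparison, the mean of the 3 probe sets not counted, with bounds from 0.696-fold to 1.498-fold. At 250835_at the intervals stayed within 2-fold in 1 of 20 settings in line774, 18 in line1135 and 17 between the lines. At 250834_at they did so in 0 of 20 in each comparison. The intervals of MPC reached from 0.423-fold to 2.12-fold. They passed 2-fold without variance moderation in each comparison. They also did so in line774 without WT-control replicate 2 or line774 replicate 3, in line1135 without WT-control replicate 2 or 3 or any 1 line1135 array, and between the lines without line774 replicate 3 or line1135 replicate 3 or in a fit of those groups alone. The filter at the 50th percentile removed MPC, 250834_at and 250835_at. Leaving out 1 array at a time, DME ranged from -0.0036 to 0.20 in line774, from -0.021 to 0.14 in line1135 and from -0.13 to 0.077 between the lines. MPC ranged from 0.01 to 0.24, from -0.19 to 0.23 and from -0.30 to 0.12, and 250835_at from -0.22 to 0.10 in line1135. Directions so close to 0 are not settled by these arrays, and some signs changed when 1 array was left out. With the mean of the 3 DME probe sets, the differences were -0.088 in line774 and -0.064 in line1135.

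The main fit did not pair arrays by replicate number. Correlations of deviations were 0.06 to 0.13 for the same number (median 0.07) and -0.15 to 0.08 for different numbers (median -0.06). Arrays of the same number were thus slightly more alike at the median. Nothing in the labels ties the numbers to a batch, and the origin of this likeness was not tested. With a replicate block, DME differed by 0.07 in line774 (limma adjusted p = 0.793) and MPC by 0.10 (adjusted p = 0.853), and no call of theirs changed. The correlation of DME and MPC kept its sign under 3 alternatives.

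The count of probe sets passing was 1502 higher and 1366 lower in line774, 1532 and 1560 in line1135, and 256 and 198 between the lines. With at least 2-fold of signal plus the offset, not of signal alone, these were 233 and 223, 242 and 278, and 99 and 38. At an adjusted p under 0.01 they were 649 and 706, 670 and 823, and 124 and 50. Between the lines, 159 were higher and 95 lower in a fit of those groups alone, 167 higher without shared probe sets, and 343 lower without the dimmest 25%. Leaving out 1 array gave 892 to 1538 higher and 879 to 1367 lower in line774, 893 to 1466 and 1023 to 1554 in line1135, and 151 to 227 and 74 to 190 between the lines. Against the WT-control the counts fell by over 1.5 times only without WT-control replicate 1. Between the lines the higher count did so without line774 replicate 2 (151) or line1135 replicate 3 (164), and the lower count without WT-control replicate 2 (129), line774 replicate 1 (117), line774 replicate 2 (74), line1135 replicate 1 (93) or line1135 replicate 3 (80).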
